A study of Mus musculus with 6 samples.

Results

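Thymic tuft cells are rare epithelial cells of the thymic medulla, and 10 genes that mark them were followed here in sorted medullary thymic epithelial cells (mTECs) of Mbd1 wild type (WT) and Mbd1 knockout (KO) mice. The members were the probes whose gene symbol in the authors' deposited matrix equalled Dclk1, Pou2f3, Trpm5, Gnat3, Il25, Avil, Gng13, Plcb2, Ltc4s or Alox5ap. They came to 15 of the 41174 probes of the matrix and to 9 of the 10 genes, since no probe carried the symbol Gnat3. All mice were 30 days old, and per the labels' protocols the sort took live EpCAM-positive, class II-positive cells and left out cells with CD45, CD11c or Ly51. The 2 groups were WT and KO, with 3 samples each and 1 Agilent array per sample. The sources used here do not state the Mbd1 allele, or whether a replicate was 1 mouse or a pool. The design text names 4 biological replicates per genotype, of which the authors removed 1 each after quality control.

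Tuft cells resemble the taste cells of the tongue. The transcription factor Pou2f3 is required to make them, and they sense their surroundings through a taste-type cascade in which a receptor activates a G protein, phospholipase C beta 2 (Plcb2) releases calcium, and the cation channel Trpm5 opens. They answer with the cytokine Il25, with cysteinyl leukotrienes made by way of Alox5ap and Ltc4s, and with acetylcholine. In the thymus they form a separate branch of the medullary epithelium. The product of Mbd1 attaches to DNA where CpG dinucleotides are methylated, so the comparison asks how genes of that branch stand in mTECs without Mbd1.

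Because Mbd1 reads CpG sites, 3 member promoters are shown, each as the 250 bases before the gene start, with every CpG in capitals. Avil has the fewest CpGs of the member windows, and over the 6 columns Ltc4s had the largest difference between the groups and Trpm5 the smallest.
Avil, chr10:127000459-127000708 (+ strand): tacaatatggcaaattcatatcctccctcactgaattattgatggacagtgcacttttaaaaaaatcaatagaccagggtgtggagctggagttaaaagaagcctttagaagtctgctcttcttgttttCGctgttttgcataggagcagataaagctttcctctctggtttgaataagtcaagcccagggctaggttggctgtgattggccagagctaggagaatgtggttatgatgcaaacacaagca
Ltc4s, chr11:50238533-50238782 (- strand): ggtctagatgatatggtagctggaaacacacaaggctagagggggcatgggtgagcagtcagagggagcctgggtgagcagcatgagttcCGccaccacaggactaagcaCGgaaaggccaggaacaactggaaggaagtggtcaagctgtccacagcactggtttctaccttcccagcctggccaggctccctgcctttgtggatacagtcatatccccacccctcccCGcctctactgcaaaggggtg
Trpm5, chr7:143094643-143094892 (- strand): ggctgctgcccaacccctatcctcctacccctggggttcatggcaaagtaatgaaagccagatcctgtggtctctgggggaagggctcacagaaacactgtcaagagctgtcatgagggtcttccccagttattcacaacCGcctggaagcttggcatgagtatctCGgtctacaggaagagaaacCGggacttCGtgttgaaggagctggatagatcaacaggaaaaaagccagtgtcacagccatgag
The sequences are those of RefSeq on GRCm38.p6. The table held 9 windows for 7 of the 10 members. Avil had 1 CpG, a window of Gng13 and that of Gnat3 had 2, Ltc4s had 3, and the windows of Trpm5, Plcb2 and the 2 of Dclk1 had 4. A second Gng13 window had 25. The member median was 4 CpGs, against 6 over all 32851 windows of that length (quartiles 2 and 16), so 8 of the 9 member windows lay below the overall median and 1 above the upper quartile. The octamer ATGCAAAT, a sequence read by POU-domain factors, was searched on both strands and lay in 0 of the 9 member windows and in 1.60% of all windows. DNA methylation and binding of Mbd1 at these promoters were not measured.

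The genotype names need a caution before any value. Matrix columns and scanner arrays were set against each other by rank, and 5 of the 6 columns had the same ranks as the median intensity of 1 array (Spearman correlation 1, single-spot probes). In each case the titles differed, and column KO_1 had no such array. Column WT_1 equalled the array titled WT 2, columns WT_2 and WT_3 those titled KO 1 and KO 3, and columns KO_2 and KO_3 those titled WT 1 and WT 3. Mbd1, the deleted gene, followed the matrix: its probe A_51_P143224 read 8.83, 8.60 and 9.0 in columns WT_1 to WT_3 and 5.64, 5.61 and 5.60 in KO_1 to KO_3 (log2 scale), a difference of -3.19 (SE 0.19, limma adjusted p = 6.2e-05). The processed intensity of that probe was 20.9, 305 and 15.6 on the arrays titled WT 1 to 3 and 356, 17.2 and 682 on those titled KO 1 to 3. Probe A_52_P158923 of Mbd1 differed by -2.96 between the columns (SE 0.19, limma adjusted p = 9.2e-05). Probe A_52_P131423 was also lower in the KO columns but did not pass (-0.98, SE 0.19, limma adjusted p = 0.125). Its processed intensity was highest, 93.3, on the array titled KO 2, where A_51_P143224 read 17.2. The groups below are therefore the matrix column names, and the values under the array titles are given at the end. By the rank matches, columns WT_1, KO_2 and KO_3 lay on 1 slide and WT_2 and WT_3 on the other. The slide of KO_1 is not known. Slide and genotype thus largely coincide in the matrix columns, and differences between slides cannot be fully told apart from those between groups.

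Tuft genes were expressed in every sample. Of the 15 probes, 13 were well above background on all 6 arrays and the Pou2f3 probe on 5, its spot on the array titled KO 2 being left out as an outlier. The remaining probe, Dclk1 A_52_P217807, was bright, but its spot carried an outlier flag on all 6 arrays, so it entered no test; its matrix values ran from 13.44 to 13.94. All 15 probes lay above the background level in every column, taken as the 95th percentile of the 5187 probes never well above background (5.46 to 5.62). The sort's own markers were also present, with Epcam between 12.78 and 13.24 and the class II gene H2-Aa between 15.22 and 15.73; Itgax, which encodes CD11c, lay between 5.49 and 6.38, near background. In a bulk sample fewer tuft cells and less RNA per tuft cell cannot be told apart.

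None of the 9 tuft genes passed the test between KO and WT columns. Counted by 1 representative probe each, the kept probe of highest mean, 0 of 9 genes passed limma at an adjusted p under 0.05, where 0.174% of all 21277 genes did. At the level of probes, 0 of 14 tested tuft probes passed, against 0.177% of all 32246 kept probes, and 0 of 14 had an unadjusted p under 0.05, against 3.96%. The groups overlapped in all 14, while they did not overlap in 8.14% of all kept probes. Of the 9 genes, 3 were higher and 6 lower in the KO columns, with a median difference of -0.09 on the log2 scale; over all genes the median was 0.00 and 49.2% were higher. The median size of the difference, sign aside, was 0.19 for the tuft genes and 0.14 over all genes. The 95% intervals of the 9 genes reached at most 1.90-fold lower (Ltc4s) and 1.73-fold higher (Pou2f3) in KO, so a larger change of any of them lay outside its interval in this fit and on this scale. Some other fits had wider intervals. In a fit of the 5 columns with a known array and slide as a block, that of Alox5ap reached -1.75 and that of Pou2f3 1.45 (log2). Under the array titles that of Alox5ap reached -1.66 (log2). The matrix ranks are those of intensities before background subtraction, a scale that understates folds of dim genes.

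**Figure D1:**
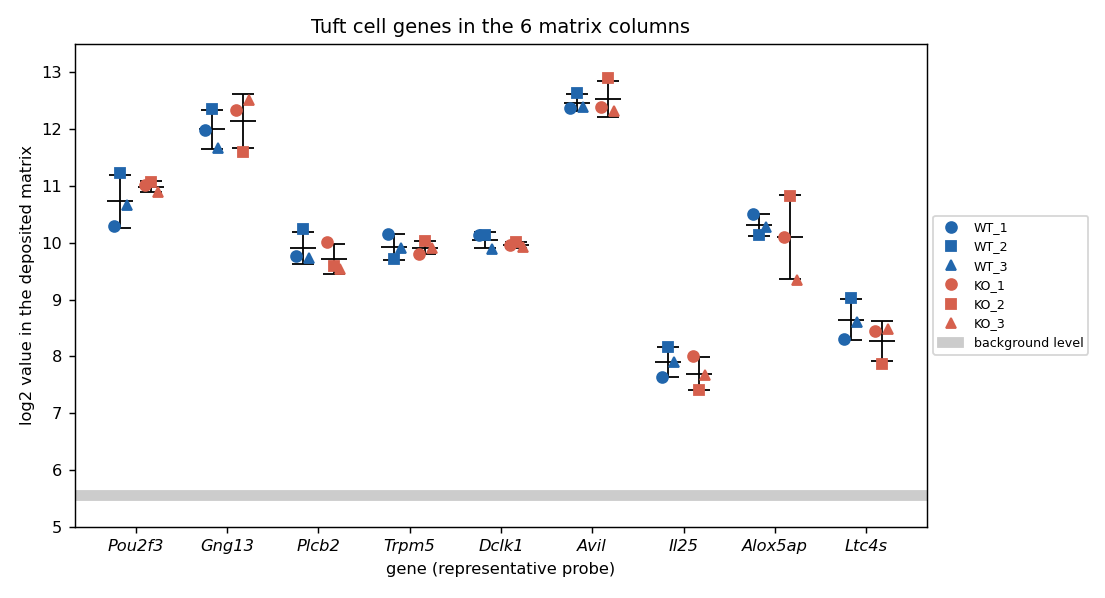
Log2 values of the representative probe of each tuft gene in the 6 matrix columns (points, WT blue and KO red), with the mean and SD per group (black, n = 3) and the background level as a grey band. The KO and WT points of every gene overlap, and all lie above the band.

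Pou2f3, the lineage factor, read 10.30, 11.23 and 10.67 in columns WT_1 to WT_3 and 11.01, 11.07 and 10.89 in KO_1 to KO_3. The KO columns lay close together, inside the span of the WT columns, whose lowest and highest were WT_1 and WT_2. The means were 10.73 ± 0.46 and 10.99 ± 0.09 (SD, n = 3), a difference of 0.26 (SE 0.24, 95% interval -0.27 to 0.79, limma adjusted p = 1.00). In a fit of the 5 columns with a known array that took slide as a block, the difference was 0.68. WT_1 was the only WT column on the slide of KO_2 and KO_3, so that value sets these KO columns against WT_1 alone. With all 6 columns Pou2f3 had the largest positive difference of the 9 genes, but it was 0.04 without WT_1, below Gng13 at 0.14 and Trpm5 at 0.10, and 0.50 without WT_2.

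Of the taste-type cascade, Gng13, the G protein gamma subunit, read 11.99, 12.35 and 11.66 in WT and 12.33, 11.60 and 12.51 in KO columns. Its lowest and highest values were both in KO columns, KO_2 and KO_3, and the difference was 0.15 (SE 0.27, 95% interval -0.45 to 0.74). Plcb2, the phospholipase that follows the G protein, had 3 probes. The brightest, A_51_P260356, read 9.76, 10.24 and 9.73 in WT and 10.02, 9.60 and 9.53 in KO columns, a difference of -0.19 (SE 0.22, 95% interval -0.68 to 0.30). The dimmest, A_52_P365466, read 6.08 to 6.64 in WT and 5.96 to 6.37 in KO columns, at its lowest 0.46 above the background level, with a difference of -0.18 (SE 0.22). The third, A_52_P583291, went the other way at 0.15 (SE 0.24), with its highest value, 8.94, in KO_2, where the 2 others were low. The Plcb2 probes thus disagreed in sign, each within its error. Trpm5, the channel at the end of the cascade, had the smallest difference of the 9 genes with all 6 columns. It read 10.15, 9.71 and 9.91 in WT and 9.80, 10.03 and 9.91 in KO columns, a difference of -0.01 (SE 0.20, 95% interval -0.44 to 0.42), or 0.73-fold to 1.34-fold. Gnat3, the gustducin alpha subunit, was not analysed here.

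Dclk1, a microtubule-associated kinase used to stain tuft cells, was read by 4 tested probes. The representative probe, A_51_P270355, read 10.14, 10.13 and 9.88 in WT and 9.96, 10.02 and 9.92 in KO columns, the narrowest range of the 14 probes at 0.26. The difference was -0.09 (SE 0.18, 95% interval -0.49 to 0.32). All 4 tested probes were lower in KO, from -0.04 (SE 0.32, A_52_P26991) to -0.30 (SE 0.21, A_52_P563818), while the probe flagged on all arrays read 0.06 (SE 0.18) in the fit without a filter. The probe A_52_P26991, designed on the clone sequence BC050903, spread over 1.29 log2 units, with 9.09 in KO_2 and 7.81 in KO_3, a spread the other Dclk1 probes did not have. Avil, advillin, an actin-binding protein of the villin family, read 12.37, 12.64 and 12.39 in WT and 12.39, 12.89 and 12.31 in KO columns. The 2 columns numbered 2 were the highest, and the difference was 0.07 (SE 0.21, 95% interval -0.40 to 0.54).

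Il25, the tuft cytokine, was lower in the KO columns on average but not beyond its error. It read 7.64, 8.16 and 7.91 in WT and 8.0, 7.41 and 7.68 in KO columns. The means were 7.90 ± 0.26 and 7.70 ± 0.29 (SD, n = 3), a difference of -0.21 (SE 0.22, 95% interval -0.70 to 0.28). Column KO_1 exceeded 2 of the WT columns.

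In leukotriene synthesis, Alox5ap, which presents arachidonic acid to 5-lipoxygenase, had the widest range of the 14 probes. It read 10.52, 10.14 and 10.27 in WT and 10.11, 10.83 and 9.35 in KO columns, so the KO columns held both extremes, 1.48 log2 units apart. The means were 10.31 ± 0.19 and 10.10 ± 0.74 (SD, n = 3), the difference was -0.21 (SE 0.32, 95% interval -0.91 to 0.49), and without column KO_3 it turned to 0.16. Ltc4s, leukotriene C4 synthase, had the largest difference of the 9 genes with all 6 columns. It read 8.31, 9.03 and 8.60 in WT and 8.45, 7.86 and 8.48 in KO columns, with means of 8.65 ± 0.36 and 8.27 ± 0.35 (SD, n = 3). The difference was -0.38 (SE 0.25, 95% interval -0.93 to 0.17, limma unadjusted p = 0.155 and adjusted p = 1.00), and 2 KO columns lay above the lowest WT column. It was -0.18 without KO_2 and -0.19 without WT_2. Over the 5 columns with slide as a block, again against WT_1 alone, the Ltc4s difference was -0.14. There Pou2f3 (0.68), Alox5ap (-0.42), Avil (0.24), Plcb2 (-0.20), Trpm5 (-0.19) and Dclk1 (-0.17) all differed by more.

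**Figure D2:**
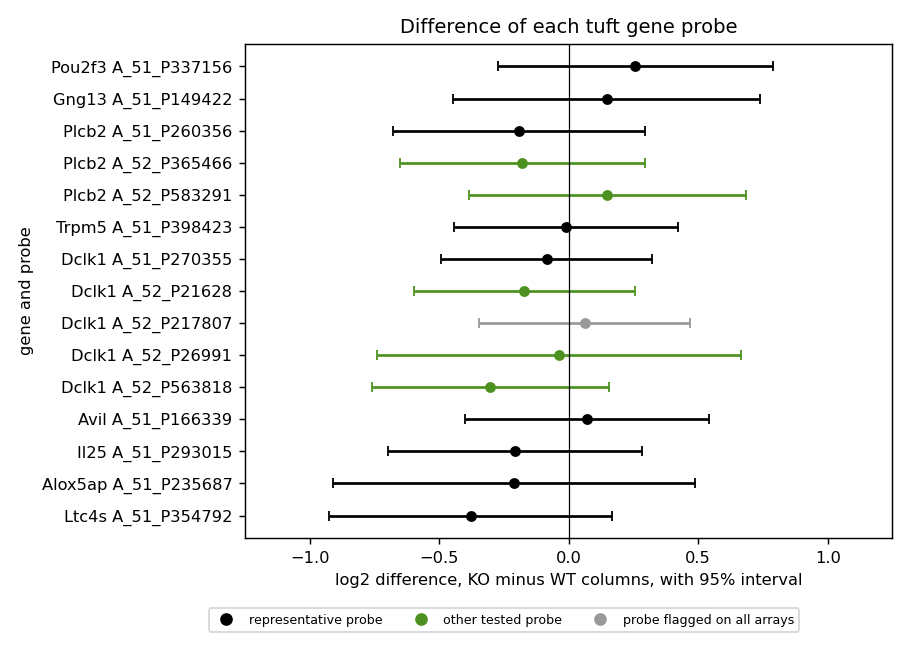
Log2 difference of KO minus WT columns for each of the 15 tuft gene probes, with 95% intervals from limma (black: representative probe, green: other tested probe, grey: Dclk1 probe flagged on all arrays, from the fit without a filter). Every interval contains 0, and the estimates run from -0.38 for Ltc4s to 0.26 for Pou2f3.

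The authors' deposited table gives the same log2 ratios for these probes, from -0.38 for Ltc4s to 0.26 for Pou2f3, with an FDR of 1.00 for each of the 15; 0.0631% of its 41174 probes had an FDR under 0.05.

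The tuft genes did not move as a block across the columns. Their ranges over the 6 columns had a median of 0.73 log2 units, against 0.70 over all kept probes, and 9 of 14 exceeded that. By representative probe, WT_2 was the highest column for 4 of 9 genes (Pou2f3, Plcb2, Il25 and Ltc4s), and it was the lowest for Trpm5. Il25, Ltc4s, the Plcb2 probe A_52_P365466 and the Dclk1 probe A_52_P21628 shared both extremes, highest in WT_2 and lowest in KO_2. Alox5ap, Avil and the Dclk1 probe A_52_P26991 shared another pair, highest in KO_2 and lowest in KO_3. In KO_2 the deviation from the 6-column mean was -0.59 for Ltc4s and 0.63 for Alox5ap, opposite in sign although both act in leukotriene synthesis. This grouping was noticed after the values were seen and carries no test.

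**Figure D3:**
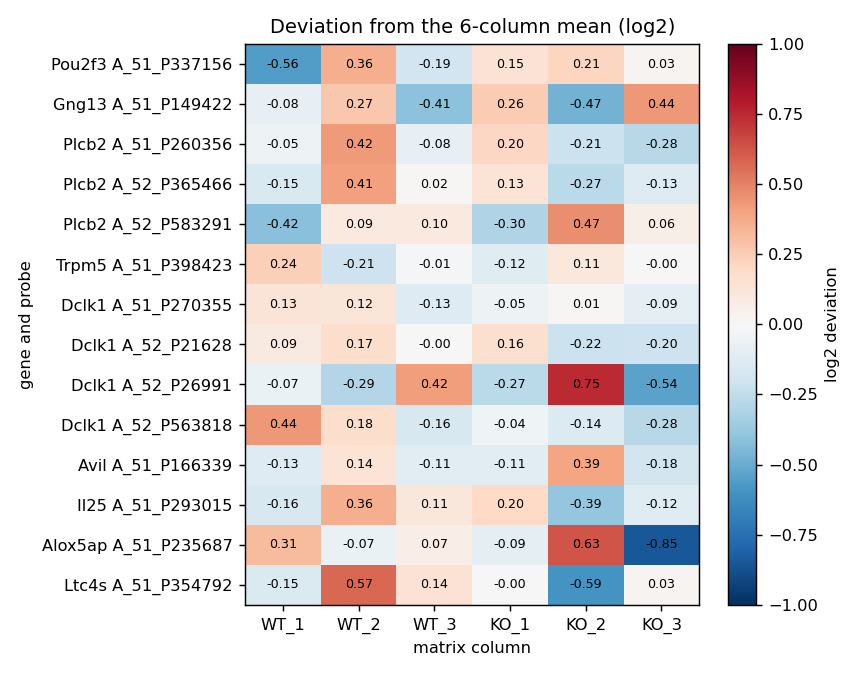
Deviation of each tested tuft gene probe (rows) from its own mean over the 6 matrix columns (log2, red above and blue below, value printed in each cell). Gng13, Il25, Ltc4s, 2 of the Plcb2 probes and the Dclk1 probes A_52_P21628 and A_52_P563818 are above their means in WT_2 and below them in KO_2, and Alox5ap spans -0.85 in KO_3 to 0.63 in KO_2.

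Other genes of tuft and taste cells were taken from a wider list of 66 genes, of which 61 had a probe and 60 were tested. None passed (limma, 0 of 60, against 0.174% of all genes), and 1 had an unadjusted p under 0.05, against 4.37%. They split into 29 higher and 31 lower, with a median difference of 0.00, and the groups did not overlap for 3 of 60 genes, against 8.39% of all genes. All genes named from this list had a limma adjusted p of 1.00. Among 10 receptors the differences ran from -0.14 to 0.45. Tas1r1, an umami taste receptor subunit, read 0.45 (SE 0.32) with its highest value in KO_3, the bitter receptor Tas2r118 read 0.30 (SE 0.22), and Cysltr2, a receptor for leukotrienes, 0.19 (SE 0.19). Among 6 further genes of taste-type signalling, the phosphodiesterase Pde2a read 0.43 (SE 0.22), the phospholipase Plcg2 0.35 (SE 0.20) and the channel Trpm4 -0.34 (SE 0.28). Gnb3, a beta subunit that pairs with Gng13, was bright (11.51 to 12.21) but carried an outlier flag on 4 arrays and was not tested. The beta subunit Gnb1 read 0.04 (SE 0.20).

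Of 8 transcription factors 6 were higher in the KO columns by representative probe, with a median of 0.17. Other kept probes of some of them had the opposite sign. Runx1 read 0.22 with its other probe at -0.22, and Sox9 0.12 with a probe at -0.19. Zfp710, lower at -0.09, had its other probe at 0.17. Spib, a factor of M cells and tuft cells that B cells also express, read 10.91, 10.95 and 10.99 in WT and 11.24, 11.61 and 11.22 in KO columns. Its groups did not overlap, yet the difference of 0.41 (SE 0.19, limma unadjusted p = 0.0595) did not pass. The homeobox genes Hmx3 and Hmx2 read 0.43 (SE 0.27) and 0.37 (SE 0.24), the other Hmx2 probe reading -0.03. Gfi1b, a zinc finger factor of tuft cells, read 7.03, 7.21 and 6.89 in WT and 6.88, 6.58 and 6.87 in KO columns, again without overlap, a difference of -0.26 (SE 0.19, unadjusted p = 0.203 by limma). The factors without overlap thus lay on opposite sides.

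Of 7 cytoskeletal genes 5 were lower, led by villin (Vil1) at -0.29 (SE 0.22), with Espn at -0.12 (SE 0.19). In eicosanoid synthesis 3 of 7 were higher and 4 lower; Lta4h, which makes leukotriene B4, read -0.30 (SE 0.21), the cyclooxygenase Ptgs1 0.20 (SE 0.22) and the prostaglandin synthase Ptges 0.19 (SE 0.24). Alox5, the lipoxygenase served by Alox5ap, read -0.05 (SE 0.23). Of 6 effector and transmitter genes, Tslp, an epithelial cytokine, was the gene with the unadjusted p under 0.05. It read 8.82, 9.16 and 9.0 in WT and 8.61, 8.71 and 8.30 in KO columns, without overlap, a difference of -0.45 (SE 0.20, limma unadjusted p = 0.0471, adjusted p = 1.00). The peptide Nmu read -0.34 (SE 0.22), the cytokine receptor Il13ra1 0.26 (SE 0.21) and Chat, which makes acetylcholine, -0.12 (SE 0.26). Among 16 further markers, Bpgm read -0.44 (SE 0.22) with its other probe at -0.04, Nrep 0.29 (SE 0.19) and Ly6g6f -0.27 (SE 0.24).

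**Figure D4:**
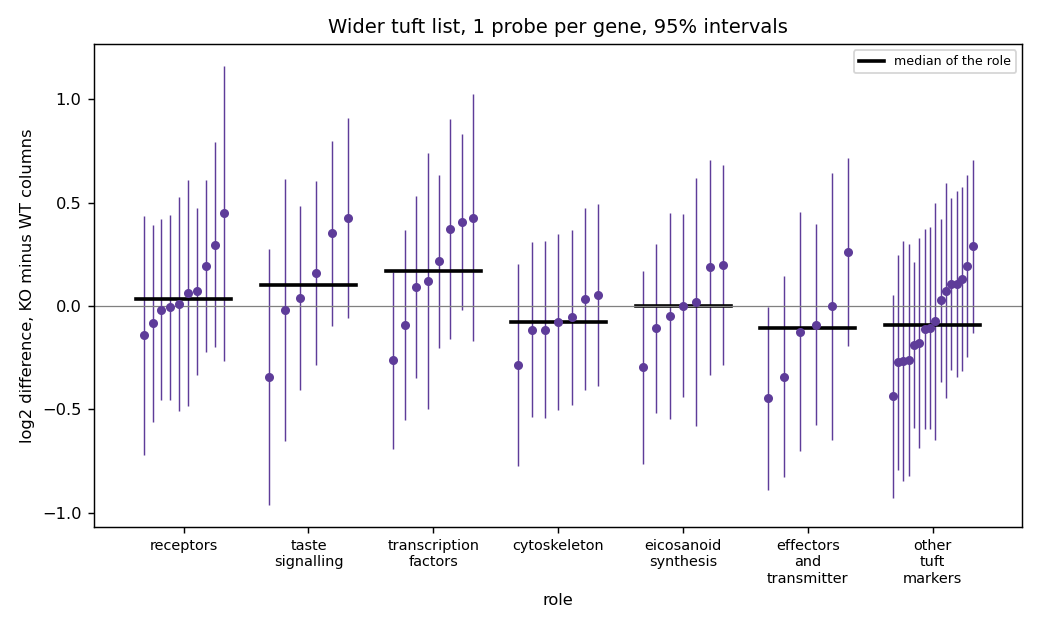
Log2 difference of KO minus WT columns for the 60 tested genes of the wider tuft list, by role, 1 probe per gene, with 95% intervals from limma and the median of each role as a black bar. The medians lie between -0.11 and 0.17, and the estimates between -0.45 for Tslp and 0.45 for Tas1r1.

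Markers of other cells the sort could hold were listed beside the tuft genes, since Alox5ap, Ltc4s and Plcb2 are also expressed in blood cells. In no such list did a gene pass (limma). The counts in these lists stand beside 4.37% of all genes at an unadjusted p under 0.05 and 8.39% without overlap. Of 17 thymocyte and T cell markers 15 were higher in KO, with a median of 0.41, 6 with an unadjusted p under 0.05 and 7 without overlap between groups; Cd8b1 read 0.97 (SE 0.21) and Dntt 0.91 (SE 0.19), both with a limma adjusted p of 0.182. Their summed level was 13.10 to 13.12 in WT and 13.43 to 13.81 in KO columns (log2 of the sum), and Rag2 was never detected. Of 16 myeloid markers 10 were higher (median 0.16, 2 with an unadjusted p under 0.05), Tyrobp at 0.70 (SE 0.28) and Itgax at 0.47 (SE 0.20), and the groups did not overlap for 4 higher and 2 lower genes. Others of this list were lower, with Mrc1 at -0.65 (SE 0.33), Cd14 at -0.37 (SE 0.19), Cybb at -0.34 (SE 0.20) and Lyz2 at -0.27 (SE 0.19). Their summed level was 15.57 to 15.62 in WT and 15.51 to 15.60 in KO columns. Csf3r was never detected, and S100a8 (13.21 to 13.89) was not tested because of outlier flags on 4 arrays. Of 15 B cell markers 9 were higher (median 0.08, 0 with an unadjusted p under 0.05), Blk at 0.44 (SE 0.28) and Faim3 at 0.37 (SE 0.24), with a summed level of 12.75 to 13.25 in WT and 12.83 to 13.40 in KO columns. Of 11 mast cell and basophil markers 5 were higher (median 0.00), with 2 at an unadjusted p under 0.05, Cma1 at -0.60 (SE 0.20) and Mcpt8 at 0.42 (SE 0.19), and the summed level was 15.07 to 15.52 in WT and 15.26 to 15.33 in KO columns. Of 15 genes of mTEC identity 7 were higher (median -0.02, 0 with an unadjusted p under 0.05), Ciita at 0.35 (SE 0.19) and Cd40 at 0.31 (SE 0.21), and 8 were lower, among them Cd80 at -0.35 (SE 0.32), Krt14 at -0.24 (SE 0.18) and Epcam at -0.23 (SE 0.19). The groups did not overlap for Ciita, higher, and Krt14, lower.

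By column, KO_2, where Alox5ap was highest, also had the highest median deviation of the myeloid (0.13), B cell (0.22) and T cell (0.28) markers. In the same column Ltc4s was at its lowest (-0.59), and the Plcb2 probes deviated by -0.27, -0.21 and 0.47. KO_3, where Alox5ap was lowest, had the lowest median deviation of the mast cell markers (-0.30), while that of the T cell (0.16) and B cell (0.04) markers was positive and that of the myeloid markers was -0.01. The part of such cells in the Alox5ap, Ltc4s and Plcb2 values was not tested.

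**Figure D5:**
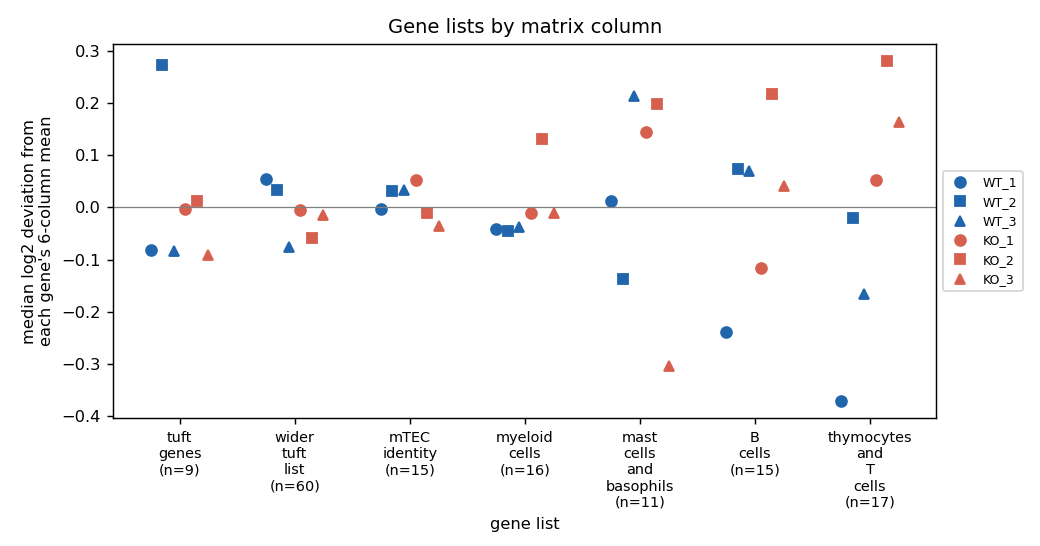
Median deviation of each gene list from the genes' own 6-column means (log2), by matrix column (WT blue, KO red; n is the number of genes). The tuft genes stand highest in WT_2 at 0.27 with the other columns between -0.09 and 0.01, and the T cell markers range from -0.37 in WT_1 to 0.28 in KO_2.

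Grouped by the titles of the scanner arrays, the tuft genes did not pass either (limma, 0 of 9 by log2 processed intensity scaled to the 75th percentile, where 0 of 32127 probes, 0%, passed and 4.1% had an unadjusted p under 0.05). Of the 9 genes 5 were higher on the arrays titled KO, with a median of 0.20, while the median of all probes was 0.11 on this scale. Il25 was the gene whose sign turned with the largest value. Its processed intensity was 148, 109 and 148 on the arrays titled WT 1 to 3 and 209, 216 and 251 on those titled KO 1 to 3. The difference was 0.54 (SE 0.24, unadjusted p = 0.0560, limma adjusted p = 0.997), against -0.21 between the matrix columns. Ltc4s read 0.45 (SE 0.33) and Plcb2 0.20 (SE 0.31), also opposite to the matrix, and the dim Plcb2 probe A_52_P365466 0.64 (SE 0.27, unadjusted p = 0.0450, adjusted p = 0.997 by limma). The arrays titled WT lay on 1 slide and those titled KO on the other, so slide and titled group cannot be told apart. For Pou2f3 the array titled KO 2 is missing from this fit (0.37, SE 0.36).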

How the data were processed

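Per the labels' protocols, RNA of sorted mTECs was amplified, Cy3-labelled and hybridised to Agilent arrays. The deposited scanner files hold intensity per spot, made with Agilent Feature Extraction (10.7.3.1 per the file headers, 10.6 per the submitters' processing notes); the processed intensity is not normalized between arrays. The authors' deposited matrix holds log2 values in 6 columns whose medians (7.13 to 7.14) and maximum agree, and the authors' comparison, namely a log2 ratio, the same as a linear fold ratio, p-values and a log-odds score; the tool is not given in the sources used here, and the score was not used.

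Spots flagged as outliers (397 to 1306 of 43379 per array) were left out, and 72.6% to 79.5% of probes were well above background. A probe was kept if well above background on at least 3 of 6 arrays (32246 probes); 449 of the 8928 probes not kept were lost to outlier flags and not to low signal. The 6 columns were fitted with lmFit and eBayes of limma 3.58.1 (R 4.3.3, two-sided, Benjamini-Hochberg over all kept probes). The fit was tested on simulated data with independent noise and shifts much larger than the tuft gene differences. That simulation therefore does not show how well differences of their size would be found. An exact permutation test of 3 against 3 cannot go below 0.1. P-values measure only the spread between these samples. The labels do not say that same-numbered columns are paired, so the main fit used no pairing. Same-numbered deviations from the group means correlated at -0.29, -0.18 and -0.33, and those of the other pairs at -0.01 to 0.23. Such deviations cancel within a group of 3, so these correlations cannot exclude a shared litter or day. Of the listed genes, all members and Mbd1 are named, per role of the wider list the 3 of smallest p (1 is not reported here), and per other list the 2 of smallest p; Gnb1, Gnb3, Alox5, Chat, Gfi1b, Epcam, H2-Aa, Csf3r, Rag2, S100a8, Mrc1, Cd14, Cybb, Lyz2, Krt14 and Cd80 were added for their role or after their values were seen, as were the further genes under the other observations. Alternatives were the filter, the probe summary, moderation, blocks, each column left out, the array titles and the authors' table. The scanner files lack a mean signal, so normexp used the median signal. Members and lists were chosen with earlier results of these data known.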

Additional observations from a re-analysis of the deposited data

How the results depend on the processing

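Under the 16 alternatives, 0 of the tuft genes tested and 0 of the wider list passed, 8 and 52 genes being tested where all 6 arrays had to be well above background, which leaves out Pou2f3 (lowest adjusted p of a tuft gene 0.697, limma), and 130 of 143 values kept their sign. Over all probes 57 passed. The count was 26 with no filter on dim probes and 26 in the authors' deposited table, 32 with 1 probe per gene and 32 with the mean over probes, 27 to 79 with a column left out (27 without WT_2, 34 without WT_3), 0 with the slide as a block over 5 columns, which also drops KO_1 (2125 at an unadjusted p under 0.05; 79 without KO_1 and no block), and 0 under the array titles (1316 at an unadjusted p under 0.05, and 1596 with normexp and quantile normalization, where 0 passed too). The fit with slide as a block rests on WT_1 as the only WT column that shares a slide with KO columns. With the replicate number as a block 95 probes passed, and no call of a tuft gene changed.

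The signs that turned include that of Ltc4s, the largest difference with all 6 columns. With a column left out, Trpm5 ran from -0.12 to 0.10 (0.10 without WT_1, 0.05 without KO_1), Gng13 from -0.035 to 0.42 (-0.02 without WT_3, -0.035 without KO_3), Avil from -0.11 (without KO_2) to 0.18, and Alox5ap from -0.58 to 0.16 (without KO_3). Under the array titles Avil read -0.052, Il25 0.54, Ltc4s 0.45 and Plcb2 0.20, and with normexp and quantile normalization Il25 0.44, Ltc4s 0.37 and Plcb2 0.21; the cause was not tested. The number of arrays and the signal over background, lowest for Plcb2 A_52_P365466, limit the precision.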

Other observations

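Within the wider list, WT_2 was the highest column for 16 of 60 genes, the most of any column, against 15.2% of all kept probes. The list's median deviation was nonetheless 0.03 in WT_2, below 0.05 in WT_1. These included Chat, Alox5, Il17rb, the receptor for Il25, Gfi1b, Sh2d6, Ptpn6, Ly6g6f, Hpgds, Tas2r108, Trpm4, Tslp, Bpgm, Cib2 and Gnb1. Chat read 8.15, 9.05 and 8.41 in WT and 8.69, 8.06 and 8.48 in KO columns, and Alox5 read 11.38, 12.10 and 11.61 in WT and 11.84, 11.61 and 11.50 in KO columns. WT_2 was also the lowest column for 10 of the 60, against 13.54% of all kept probes, among them Siglecf, Kctd12 and Sox9, a factor of other epithelial cells too. Pla2g4a, which releases arachidonic acid, stood at 12.28 in KO_2 and between 11.22 and 11.65 elsewhere, the same column in which Alox5ap was highest. These genes were singled out after their values were seen, and the pattern was not tested.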
